A study of Mus musculus with 6 samples.

Results

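The regions described here are those where FLAG-tagged Onecut3 gave a ChIP-Seq peak in exactly 2 of 3 Onecut3-OE replicates. The 3 peak lists were merged wherever intervals overlapped by at least 1 bp, and a region on chromosomes 1 to 19 or X was kept when peaks of exactly 2 lists fell in it. This gave 8071 of 50748 regions (15.9%). Replicates 1 and 3 shared 4324 of them (53.6%), replicates 1 and 2 shared 2168 (26.9%) and replicates 2 and 3 shared 1579 (19.6%). This order depended on the weaker peaks. With q of at most 0.05 the pairs held 1521, 1303 and 1404 regions in the same order, and with −log10 q of at least 5 they held 176, 322 and 230, which made replicates 1 and 3 the smallest pair. Another 5099 regions had a peak in all 3 replicates and 37578 had a peak in 1. Since members were chosen by the measured peak calls, the folds and q values given further on only describe the regions.

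The cells were p53 KO mouse embryonic fibroblasts (MEFs), primary cells of C57BL/6 embryos, so all groups lacked p53. Doxycycline at 100 ng/mL switched on FLAG-tagged Onecut3 from a Retro-X Tet-One inducible retroviral construct, which is not the endogenous gene, and chromatin of 3 Onecut3-OE replicates was precipitated with an antibody against FLAG. A control FLAG library without doxycycline, an input library and an IgG library (1 each of the 6 libraries) were not analysed here, so peaks that the antibody gives without Onecut3 have not been removed. The labels do not say whether the replicates were separate cultures, and with a single condition there was no contrast to test. The lists hold no expression values, so the fibroblast label could not be checked against markers.

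Onecut3 belongs to the ONECUT transcription factors, which bind DNA through a single CUT domain and a homeodomain. Members of this family are known for their part in liver, pancreas, retina and motor neuron development. Their usual target contains the core ATCGAT or the related ATTGAT, which reads ATCAAT on the other strand. A ChIP-Seq peak marks a stretch where precipitated fragments pile up above the control, and each region described here lacked such a peak in a single replicate.

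Promoter sequence is shown first, because sequence played no part in choosing the regions. Each line below gives 300 bases around a start site, from 250 bases before it to 50 after it, as RefSeq has it for GRCm38.p6, read 5′ to 3′ on the strand of the gene. Capitals mark ATCGAT. For each pair of replicates the promoter with the best fold ranks among those that held both summits is shown with ATCGAT, followed by the best one with neither core. Aox1 (aldehyde oxidase) and Uevld belong to replicates 1 and 2, Mrps23 (a mitochondrial ribosomal protein) and Hrct1 to replicates 1 and 3, and Actr6 (an actin-related protein of chromatin remodelling complexes) and Pnp (purine nucleoside phosphorylase) to replicates 2 and 3.
Aox1: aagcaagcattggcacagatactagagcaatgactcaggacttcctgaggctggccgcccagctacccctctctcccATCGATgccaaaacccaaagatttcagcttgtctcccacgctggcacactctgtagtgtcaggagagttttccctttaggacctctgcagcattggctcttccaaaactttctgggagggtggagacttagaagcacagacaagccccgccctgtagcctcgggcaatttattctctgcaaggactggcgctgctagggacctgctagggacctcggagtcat
Uevld: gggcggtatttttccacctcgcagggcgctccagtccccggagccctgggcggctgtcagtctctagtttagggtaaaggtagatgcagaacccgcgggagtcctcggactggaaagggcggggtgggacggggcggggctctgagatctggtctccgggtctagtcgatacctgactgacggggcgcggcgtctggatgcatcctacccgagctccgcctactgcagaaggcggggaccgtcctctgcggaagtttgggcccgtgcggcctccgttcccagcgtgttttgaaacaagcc
Mrps23: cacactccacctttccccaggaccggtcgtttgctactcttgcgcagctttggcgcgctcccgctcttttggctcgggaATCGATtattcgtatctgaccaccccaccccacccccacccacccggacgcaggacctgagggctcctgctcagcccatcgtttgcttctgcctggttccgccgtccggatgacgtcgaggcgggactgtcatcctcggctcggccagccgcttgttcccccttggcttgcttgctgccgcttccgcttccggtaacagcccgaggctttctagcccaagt
Hrct1: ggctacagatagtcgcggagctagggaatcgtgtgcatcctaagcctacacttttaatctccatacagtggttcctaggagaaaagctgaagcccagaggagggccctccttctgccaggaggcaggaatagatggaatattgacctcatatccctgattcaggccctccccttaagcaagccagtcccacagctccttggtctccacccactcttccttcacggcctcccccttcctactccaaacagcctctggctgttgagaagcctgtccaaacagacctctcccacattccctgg
Actr6: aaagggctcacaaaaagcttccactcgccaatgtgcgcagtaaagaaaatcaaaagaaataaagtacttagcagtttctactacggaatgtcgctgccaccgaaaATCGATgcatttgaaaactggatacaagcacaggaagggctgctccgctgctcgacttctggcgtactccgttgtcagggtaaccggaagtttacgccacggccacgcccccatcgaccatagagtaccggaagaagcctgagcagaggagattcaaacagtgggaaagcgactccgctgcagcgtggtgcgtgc
Pnp: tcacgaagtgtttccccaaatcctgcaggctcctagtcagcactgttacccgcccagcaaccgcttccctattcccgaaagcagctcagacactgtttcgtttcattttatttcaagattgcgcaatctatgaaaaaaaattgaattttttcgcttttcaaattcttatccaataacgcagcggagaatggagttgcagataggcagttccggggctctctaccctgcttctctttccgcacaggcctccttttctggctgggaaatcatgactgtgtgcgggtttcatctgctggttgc

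The Aox1 window lies at chr1:58029719-58030018 on the plus strand, and its ATCGAT began at position -173 from the start site, 52.5 bp from the summit of replicate 1 and 49.5 bp from that of replicate 2. The Mrps23 window is at chr11:88204138-88204437 (plus strand), with the core at -171 and 20.5 and 22.5 bp from the summits of replicates 1 and 3. The Actr6 window is at chr10:89732246-89732545 (minus strand), with the core at -145 and 21.5 and 32.5 bp from the summits of replicates 2 and 3. In all 3 promoters the core lay upstream of the start site and within 52.5 bp of both summits. They were picked to hold the core and both summits in a window that is mostly upstream, so nothing is read from this. The windows without either core were at chr7:46958469-46958768 for Uevld (minus strand), chr4:43726948-43727247 for Hrct1 (plus strand) and chr14:50944053-50944352 for Pnp (plus strand). Their folds over the control were 4.84 and 5.29 for Uevld, 4.28 and 5.15 for Hrct1, and 4.46 in each list for Pnp. The promoters with ATCGAT had 4.54 and 4.46 (Aox1), 4.90 and 5.42 (Mrps23) and 6.04 and 7.32 (Actr6), so the last was higher than Pnp of the same pair and Aox1 was not higher than Uevld.

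Regions in exactly 2 replicates covered 283 of the 21020 promoter windows, those of 256 genes. ATCGAT stood in 26 of these windows (9.19%, Wilson 95% interval 6.35 to 13.1), against 182 of all 21020 windows (0.866%). By pair, the share was 9 of 81 windows (11.1%, 5.96 to 19.8) for replicates 1 and 2, 12 of 140 (8.57%, 4.97 to 14.4) for replicates 1 and 3, and 5 of 62 (8.06%, 3.49 to 17.5) for replicates 2 and 3. The 3 intervals overlapped, and each included the 10.1% of windows (35 of 347) under regions found in all 3 replicates. Under regions of a single replicate the share was 3.05% (8 of 262) for replicate 1, 1.28% (1 of 78) for replicate 2 and 1.94% (4 of 206) for replicate 3. The interval over all windows with exactly 2 replicates lay above the upper limits for replicates 1 and 3 alone (5.91 and 4.89%) and overlapped that for replicate 2 alone (6.91%). These intervals cover counting error only, overlapping windows of neighbouring start sites are not independent, and a match is a description of the letters and not of a bound site.

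**Figure D1:**
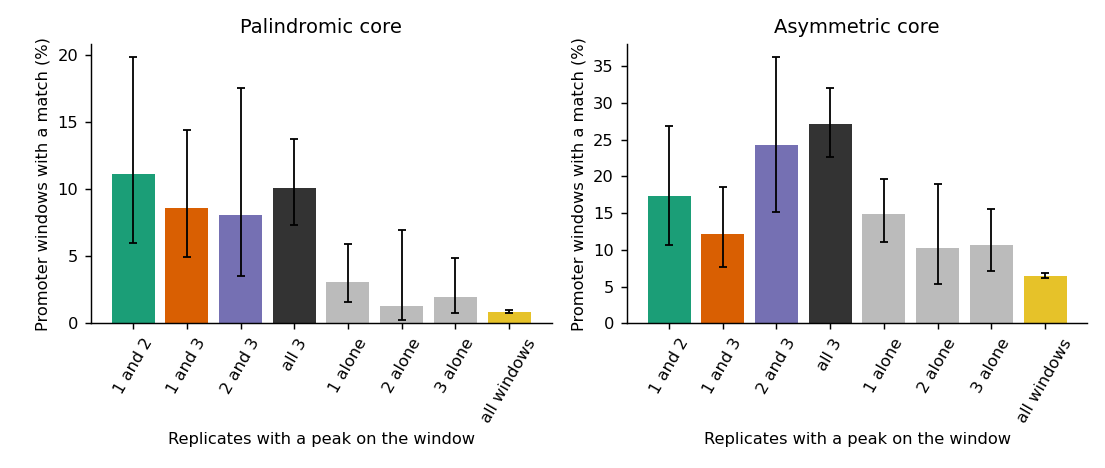
Share of RefSeq promoter windows (%) that hold the palindromic core ATCGAT (left) or the asymmetric core ATTGAT (right), by the replicates with a peak on the window, with Wilson 95% intervals as error bars. All 3 pairs stand at 8.06 to 11.1% for the palindromic core, beside 0.866% of all windows.

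ATTGAT, counted on both strands, stood in 46 of the 283 windows (16.3%, 12.4 to 21.0), against 27.1% under regions of all 3 replicates and 6.48% of all windows. Replicates 2 and 3 had it in 24.2% of windows, replicates 1 and 2 in 17.3% and replicates 1 and 3 in 12.1%, with overlapping intervals. Single replicates had it in 10.3 to 14.9%. One core or the other was present in 72 of the 283 windows (25.4%, 20.7 to 30.8), in 37.2% of those under regions of all 3 replicates and in 7.29% of all windows. Where both summits fell inside the window, 60 of 158 windows (38.0%) held a core and 22 (13.9%) held ATCGAT.

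Other letters were chosen after the values of the cores had been seen. Like ATCGAT, each of 3 other palindromes joins a pair of A and a pair of T around a central CG. Of these, AACGTT was in 1.77% of the 283 windows and 1.83% of all windows. The palindrome TTCGAA was in 2.12 and 1.86%, and the palindrome TACGTA in 0 and 0.904%. The AP-1 site TGANTCA was in 5.65% against 7.04%, and CCAAT (read on the other strand as ATTGG), the NF-Y box common in promoters, in 50.9% (45.1 to 56.7) against 38.5% (37.8 to 39.1). CCAAT thus also stood above all windows, and the other 4 had intervals that included the share of all windows. None of the 7 motifs contains another, all were read on both strands, and a window could hold several. The median GC content was 59.7% in the 283 windows and 56.7% in all windows.

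Within the covered promoters, every ATCGAT lay in bases that a region covered. There were 9 such positions for replicates 1 and 2, 11 for replicates 1 and 3 and 4 for replicates 2 and 3, and 0 in the uncovered bases of the same windows, which came to 7.21, 13.7 and 6.13 kb. The density in covered bases was 0.594, 0.444 and 0.392 per kb, against 0.0292 per kb over all windows. CCAAT was also denser in covered bases, with 4.49, 3.23 and 4.90 per kb, against 2.64, 1.82 and 2.77 per kb in uncovered bases. TGANTCA was covered at 4 of 4, 6 of 6 and 2 of 4 positions. For replicates 2 and 3 it was thus less dense in covered bases (0.196 per kb) than in uncovered ones (0.326 per kb). The median distance of the core to the nearer summit was 13.5, 20.5 and 22.5 bp for the pairs. For regions in all 3 replicates it was 5.50 bp. There the nearest of 3 summits was taken instead of 2, which shortens the distance by construction, so the values are not compared. Of the 24 positions in the pairs, 23 were within 50 bp of the nearer summit, the farthest being 58.5 bp away. The summit of the other replicate could lie farther off, up to 268 bp from the core at Kcnk5.

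The 26 windows with ATCGAT belonged to 25 genes and 24 regions, since Actr6 had a pair of start sites and Ifit1 and Ifit1bl2 lie head to head under 1 region. Those of replicates 1 and 2 were Aox1, Fbxw5, Mkrn3, Casp2, Stk35, Tbc1d14, Pnpla6, Kcnk5 and Fra10ac1. At Casp2, which encodes a caspase, the core was 0.500 bp from the summit of replicate 1 and 41.5 bp from that of replicate 2. Those of replicates 1 and 3 were Mrps23, Eif4e, Swsap1, Kcns1, Ubl3, Hoxb4, Nsun4, Adprhl2, Dync2h1, Syt2, Ifit1 and Ifit1bl2. Eif4e encodes the cap-binding translation factor, and its core lay 3.50 and 16.5 bp from the summits, with folds of 4.56 and 4.60. The folds at Hoxb4, a homeobox gene of the HoxB cluster, were 4.31 and 3.91, with the core 21.5 and 62.5 bp away. Those of replicates 2 and 3 were Actr6, Vbp1 (a prefoldin subunit), Churc1 and Ccdc92. Not all of these regions were strong, as that of Ifit1, an interferon-induced gene, had folds of 3.06 and 2.76 with q values of 0.0888 and 0.232.

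In relation to protein-coding genes, most regions in exactly 2 replicates lay away from gene ends. The midpoint was within 3 kb of either end of a gene in 1045 (12.9%), deeper inside a gene in 3293 (40.8%) and between genes in 3733 (46.3%). The share at gene ends was 14.0% (12.6 to 15.5) for replicates 1 and 2, 11.6% (10.7 to 12.6) for replicates 1 and 3 and 15.2% (13.5 to 17.1) for replicates 2 and 3. The pair of replicates 1 and 3 was thus lowest, with an interval that touched that of replicates 1 and 2 at its edge and stayed below that of replicates 2 and 3. With peaks of q at most 0.05 the shares of replicates 1 and 3 and of replicates 2 and 3 were 14.5% (12.8 to 16.4) and 17.2% (15.4 to 19.3), with intervals that overlapped. Every pair was below the 18.2% (17.2 to 19.3) of regions found in all 3 replicates. Regions of replicate 1 alone (10.3%, 9.92 to 10.8), replicate 3 alone (10.4%) and replicate 2 alone (12.0%, 11.1 to 13.1) were at gene ends about as often as those of replicates 1 and 3 together, with overlapping intervals. The intervals of replicate 1 alone and of replicate 3 alone stayed below both other pairs.

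**Figure D2:**
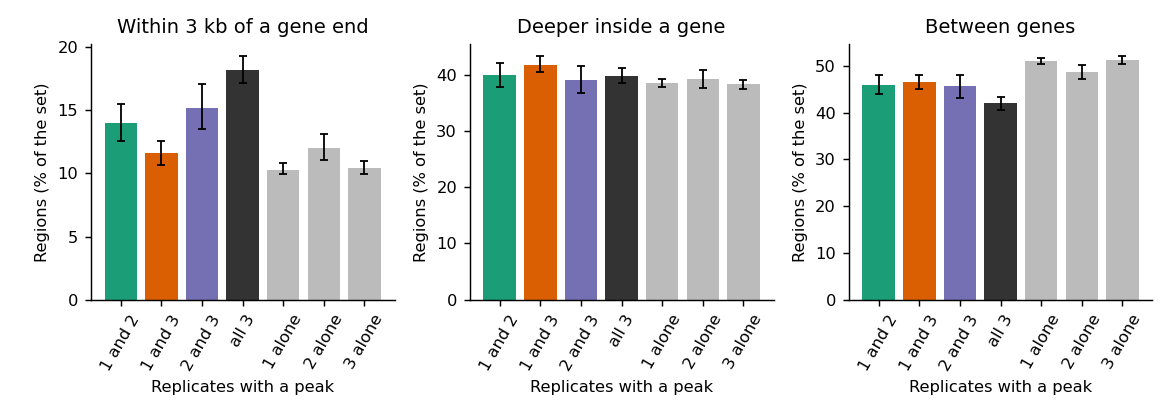
Share of regions (%) within 3 kb of a gene end, deeper inside a gene and between genes, by the replicates with a peak, with Wilson 95% intervals as error bars. The pairs stand at 11.6 to 15.2% at gene ends, below the 18.2% of regions in all 3 replicates.

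Inside genes the pairs were alike, at 39.9, 41.8 and 39.1%, next to 39.8% for all 3 replicates. The genes that held them were long, with a median length of 157 kb, and 65.4% of the regions deep inside genes lay in a gene of over 100 kb, close to the 166 kb and 66.4% over all regions. Between genes the median gap to the nearest gene was 68.9 kb for replicates 1 and 2, 67.4 kb for replicates 1 and 3 and 66.6 kb for replicates 2 and 3, compared with 61.2 kb for all 3 replicates and 73.1 to 89.0 kb for single replicates.

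With strand taken into account, which was possible for RefSeq genes with a promoter window and leaves out chromosome 18, the regions gathered just upstream of start sites. Within 3 kb of a start site lay 9.36% of the regions of replicates 1 and 2 (198 of 2115), 8.34% of replicates 1 and 3 (351 of 4210) and 10.5% of replicates 2 and 3 (162 of 1538), against 13.3% for all 3 replicates and 6.35 to 8.39% for single replicates. Within 500 bp the shares were 3.83, 3.44 and 4.23%, against 6.92% and 1.86 to 2.44%. Only the 3′ end was near in 3.12, 2.49 and 2.54%, close to the 2.67% of regions in all 3 replicates. The pairs therefore differed from regions in all 3 replicates at start sites and not measurably at 3′ ends. Upstream midpoints numbered 106 against 92 downstream for replicates 1 and 2, 178 against 173 for replicates 1 and 3 and 98 against 64 for replicates 2 and 3.

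**Figure D3:**
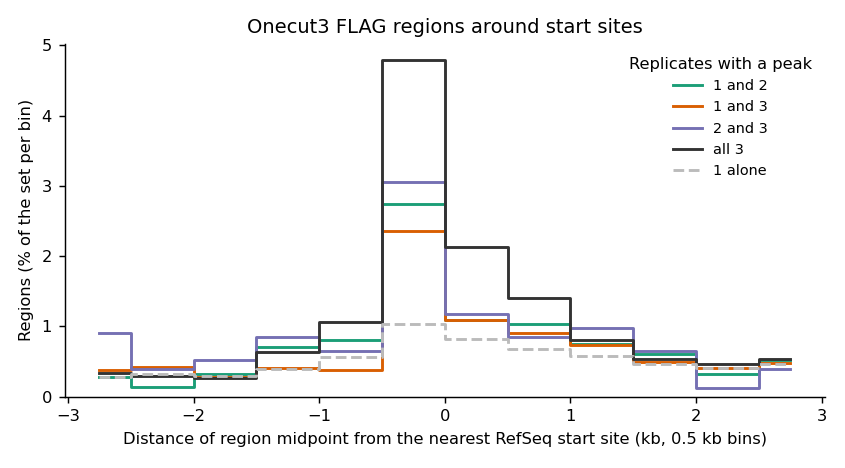
Regions by distance of their midpoint from the nearest RefSeq start site in bins of 0.5 kb, negative upstream, as a share of the set (%), for the 3 pairs, regions in all 3 replicates and regions of replicate 1 alone. The bin just upstream holds 2.74, 2.35 and 3.06% of the pairs, 4.78% of regions in all 3 replicates and 1.04% of replicate 1 alone.

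A gene was counted as reached when a region overlapped the 3 kb on either side of one of its ends. Regions of replicates 1 and 2 reached 369 of 21631 protein-coding genes (1.71%), those of replicates 1 and 3 reached 600 (2.77%) and those of replicates 2 and 3 reached 285 (1.32%). Together they reached 1229 genes (5.68%), close in number to the 1165 (5.39%) reached by regions in all 3 replicates. Of the 1229 genes, 84 were also reached by a region in all 3 replicates, which is 6.83% of the former and 7.21% of the latter, and 1145 were not. With both kinds of region counted, 2310 genes (10.7%) were reached. At their ends 48 genes had more than 1 region of exactly 2 replicates and none had more than 2. How many such genes would occur by chance was not worked out.

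No gene was reached by all 3 pairs, and 25 of the 21631 were reached by 2 of them. As the pairs reached 1.71, 2.77 and 1.32% of all genes, some such genes occur without any tie between the pairs, and nothing is read from the number. The 25, named after their values were seen, included Creb1, the cAMP-responsive factor, Nfe2l1, a regulator of proteasome genes, and Vgll3, a TEAD cofactor. Pxn, which encodes the focal adhesion protein paxillin, Mapre1, which encodes the microtubule end-binding protein EB1, and Terf2ip, which encodes the telomere protein RAP1, were also among them. Emx2 (a homeobox gene) and Commd1 were reached by a region in all 3 replicates as well, and the other 23 were not.

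Among gene groups, the share reached by regions in exactly 2 replicates is read here against the 5.68% of all protein-coding genes. Of 28 highly transcribed housekeeping genes, 8 were reached (28.6%): Eef2, Ppia, Ubb, Hnrnpk, Tubb5, Hsp90ab1, Rplp0 and Hnrnpa2b1. The region at Hnrnpk (an RNA-binding protein) had folds of 5.75 and 5.29 in replicates 1 and 2 and lay 1.20 kb downstream of a RefSeq start site. At Ubb (ubiquitin) the folds in replicates 1 and 3 were 3.57 and 4.51, and the midpoint was 0.0660 kb from the start. Ppia (cyclophilin A) had 4.55 and 3.38 in the same replicates. Of these 28 genes, 4 (14.3%) were reached by regions in all 3 replicates.

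Focal adhesion and actin genes were the next group, with 6 of 28 reached (21.4%, 3 by regions in all 3 replicates): Cnn2, Cfl1, Tln1, Pxn, Zyx and Parva. At Tln1, the gene of talin that couples integrins to actin, the folds were 4.24 and 3.74 in replicates 1 and 3, and the region lay beyond the 3′ end. At Cfl1 (cofilin) replicate 1 had a fold of 4.73 with q = 1.04e-05 and replicate 2 a fold of 2.92 with q = 0.264. In the TGF-β and BMP group 4 of 24 were reached (16.7%): the ligand gene Tgfb2 and the BMP targets Id1, Id2 and Id3. Their folds were modest, from 3.38 and 4.68 at Tgfb2 down to 2.13 and 2.53 at Id3, where neither q was under 0.05. Regions in all 3 replicates reached 6 of the same 24.

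Of 20 Hippo genes 3 were reached (15.0%), Vgll3, Tead2 and Amotl2, and of 24 CUT and TALE homeobox genes 3 (12.5%), Cux2, Irx3 and Irx5. The best-ranked region at Vgll3 had q above 0.05 in both lists (0.0673 and 0.943). Those at Tead2, Amotl2 and Irx5 had q of at most 0.05 in 1 list only. The Irx3 region had folds of 4.84 and 4.14 in replicates 1 and 3 and lay inside this short gene. The region in Cux2, itself a CUT factor gene, had 3.49 and 3.99 and lay within the gene, 0.196 kb from its end and 0.368 kb upstream of a RefSeq start site. Replicates 1 and 3, the pair with 53.6% of all regions in exactly 2 replicates, carried all 3 of these homeobox regions. AP-1 and immediate early genes had 2 of 20 reached (10.0%), Klf6 and Ier3.

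In chromosome segregation and mitosis 5 of 54 were reached (9.26%), Cenpk, Cenpc1, Knl1, Smc3 and Ccnb1, against 6 (11.1%) by regions in all 3 replicates. Cenpk, a kinetochore gene, had folds of 5.45 and 4.99 in replicates 2 and 3, 0.295 kb upstream of its start. Cenpc1, which encodes the centromere protein CENP-C, had 4.59 and 4.42 in replicates 1 and 2. In DNA replication 3 of 28 were reached (10.7%), the licensing genes Mcm3, Orc6 and Cdt1, each by replicates 1 and 3, the largest pair. None of these 3 regions had q of at most 0.05 in both lists. The q values were 0.0201 and 0.142 at Mcm3, 0.197 and 0.00301 at Orc6, and 0.0673 and 0.0116 at Cdt1. The Cdt1 region lay 1.52 kb beyond the 3′ end. The 4 genes of the chromosomal passenger complex had 0 reached at their ends. Within the Incenp gene a region of replicates 1 and 3 at chr19:9889527-9889831 had folds of 3.05 (q = 0.138) and 5.25 (q = 3.69e-06). It was 2.35 kb from a region found in all 3. Within Cdca8 a region of the same pair at chr4:124932114-124932432 had folds of 3.94 (q = 0.00517) and 3.18 (q = 0.142). Both regions thus met q of at most 0.05 in 1 list only. The nearest regions of exactly 2 replicates to Aurkb and Birc5 were 45.5 and 100 kb away.

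Of 28 fibroblast and extracellular matrix genes, 0 were reached by regions in exactly 2 replicates and 6 (21.4%) by regions in all 3. Hepatocyte genes had 0 of 24 and blood cell genes 0 of 20, while neuronal genes had 1 of 24 (4.17%), Nefl, the light neurofilament gene. Of 1110 olfactory receptor genes 7 were reached (0.631%). The lists hold few genes, so 1 gene moves a share by several percentage points in all but the olfactory receptors, and at a background of 5.68% a count of 0 in a list of this size says little.

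The 8 regions with the best mean rank of fold are described for each pair. Counts out of 8 are too small to compare place between the pairs. For replicates 1 and 2 the 8 best lay nearest to Tex35, Zfat, Sox5, Hspb9, Slc12a7, Rbms3, Thtpa and Slc47a1. The region 22.7 kb from Tex35 at chr1:157076244-157076580 had folds of 5.64 and 8.45. The one in Sox5, a SOX factor of cartilage and neural development, had 7.41 and 6.40 at chr6:144088069-144088487. Of these 8, 4 were inside a gene and 3 at a gene end.

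For replicates 1 and 3 the 8 best were nearest to Bhlhe41, Nfatc2, Prkd3, Slc9a3r1, Lrrc4c, Gm5544, Trps1 and Lgsn. The region 16.5 kb upstream of Bhlhe41, a circadian repressor, at chr6:145881671-145882192 had folds of 6.52 and 6.37. The one inside Nfatc2, a calcium-responsive factor, had 5.45 and 6.69. Only the region of Slc9a3r1, a membrane scaffold gene, was at a gene end. For replicates 2 and 3 they were nearest to Degs1, Actr6, Fhdc1, Ehd4, Adk, Haao, Hmg20b and Arl3, and 5 of these were at a gene end. The Actr6 region at chr10:89732285-89732606 had folds of 6.04 and 7.32, and that of Ehd4, an endocytic ATPase, had 7.22 and 4.84 at 0.153 kb upstream of the start site.

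Counted over whole genes with 3 kb on each side, 294 of 21631 genes held 3 or more regions of exactly 2 replicates and 71 held 5 or more. The highest numbers were in long genes: 16 in Macrod2, which spans 1998 kb, 11 each in Pde4d and Magi2, 10 each in Sugct and Etl4, and 8 each in Kcnab1, Sorcs1, Foxp1, Plcb1 and Prkg1. Per 100 kb these had from 0.663 in Prkg1 to 1.84 in Kcnab1. In Sugct 9 of 10 came from replicates 1 and 3, whereas in Pde4d, a cAMP phosphodiesterase gene, 6 of 11 came from replicates 1 and 2. Over all regions of exactly 2 replicates these pairs gave 53.6 and 26.9%. Both genes were singled out after the counts were seen, so nothing is read from their splits.

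Among genes of at least 20 kb with 3 or more regions, the densest included Pef1 at 11.3 per 100 kb, Fas at 9.27, Abhd17b at 7.82, Hoxb3 at 6.41, Galnt5 at 6.10, Hoxa3 at 6.00, Wt1 at 5.65, Tarbp1 at 5.38 and Met at 5.14. Fas, the death receptor gene, had 4 regions spread over all 3 pairs and 2 regions of all 3 replicates. Met, the receptor of hepatocyte growth factor, had 6. All 3 regions in Wt1 were of replicates 1 and 2 and all 3 in Galnt5 of replicates 2 and 3, pairs with 26.9 and 19.6% of all such regions. Among 294 genes with 3 or more regions some splits of this kind occur without any tie to the gene, and nothing is read from them.

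Distance to the nearest region found in all 3 replicates was measured edge to edge. Its median was 110 kb (95% interval 102 to 118, upper quartile 269) for replicates 1 and 2, 118 kb (111 to 124, upper quartile 297) for replicates 1 and 3 and 109 kb (97.7 to 116, upper quartile 263) for replicates 2 and 3. The 3 intervals overlapped. Regions in all 3 replicates lay a median of 97.6 kb (92.6 to 102) from the next of their kind, which touched the intervals of replicates 1 and 2 and of replicates 2 and 3 and lay below that of replicates 1 and 3. Regions of replicate 1 alone (151 kb) and of replicate 3 alone (141 kb) were farther away, and those of replicate 2 alone (121 kb, 114 to 129) overlapped all 3 pairs.

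Few of the regions were flanks of a region in all 3 replicates. Within 1 kb of one lay 48 regions of replicates 1 and 2, 59 of replicates 1 and 3 and 28 of replicates 2 and 3, and within 10 kb lay 10.4, 8.44 and 10.0%. More than 1 Mb away were 80, 228 and 86. The number of regions in all 3 replicates differed between chromosomes, from 60 on X to 489 on chromosome 2. The median distance was shortest on chromosome 19 at 42.9 kb, with 372 such regions, and longest on X at 850 kb. Densities per base were not computed, and a relation of this distance to them was not tested.

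**Figure D4:**
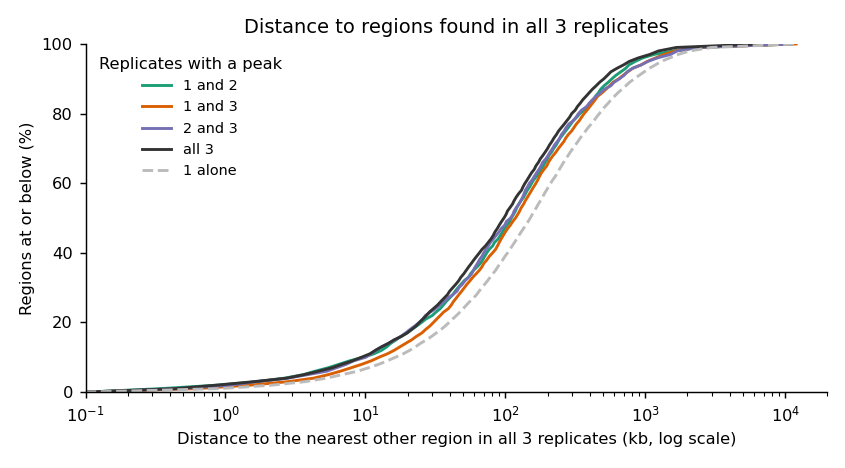
Cumulative share of regions (%) by the distance to the nearest other region found in all 3 replicates (kb, log scale), for the 3 pairs, for regions in all 3 replicates and for those of replicate 1 alone. The medians of the pairs are 110, 118 and 109 kb, between the 97.6 kb of regions in all 3 replicates and the 151 kb of replicate 1 alone.

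Along the chromosomes, regions in exactly 2 replicates made up 14.4 to 17.6% of all regions of an autosome and 9.85% of those of X. On X there were 2.78 of them for each region in all 3 replicates (167 and 60), compared with 1.30 on chromosome 19 to 2.01 on chromosome 9. Chromosome 19 held 7.10% of the regions of replicates 1 and 2 and 7.73% of those of replicates 2 and 3, but 4.81% of those of replicates 1 and 3. Chromosome 9 held 4.43% of replicates 1 and 2, 4.05% of replicates 1 and 3 and 2.53% of replicates 2 and 3.

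Peak strength describes the members, since the calls chose them. Fold over the control is the authors' ratio of ChIP signal to background at the summit. In replicate 1 this background exceeded its lowest level of 2.30 in 41.8% of peaks shared with replicate 2 and 34.8% shared with replicate 3. In replicate 3 it exceeded 2.14 in 35.4% of peaks shared with replicate 1 and 50.9% shared with replicate 2. For many peaks the fold was thus set against a fixed background. In replicate 1 the median fold was 3.33 in both of its pairs, against 3.94 in all 3 replicates and 3.02 in replicate 1 alone. In replicate 2 it was 3.63 with replicate 1 and 3.62 with replicate 3, against 4.18 and 3.36. In replicate 3 it was 3.47 and 3.50, against 4.05 and 3.13. In every list the pairs thus stood between the other classes. The median ChIP pileup, the number of fragments stacked at the summit, was 11 in replicate 1 for both pairs, beside 14 in all 3 replicates and 9 in replicate 1 alone.

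**Figure D5:**
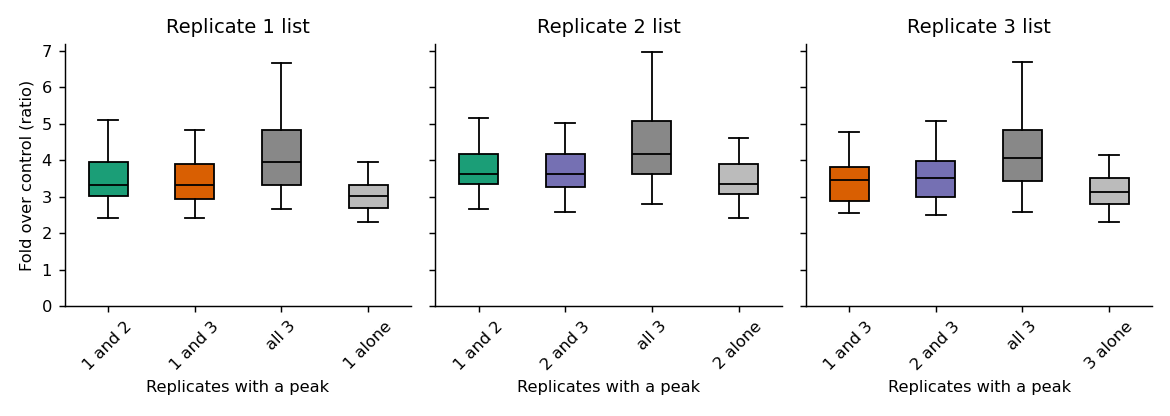
Fold of each peak over the control (ratio) in the lists of replicates 1, 2 and 3, by the replicates that share the region, with boxes from the lower to the upper quartile, a line at the median and whiskers at the 5th and 95th percentiles. In each list the medians of the pairs (3.33 to 3.63) lie above those of peaks in that list alone (3.02 to 3.36) and below those in all 3 lists (3.94 to 4.18).

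Many members rested on weak calls, as the lists hold peaks with q well above 0.05. For replicates 1 and 3, q was at most 0.05 in both lists for 28.5% of regions, in 1 list for 42.9% and in neither for 28.5%. For replicates 1 and 2 the shares were 38.8, 43.8 and 17.4%, and for replicates 2 and 3 they were 45.6, 39.8 and 14.6%. A fold of at least 5 in both lists was seen in only 32, 31 and 21 regions of replicates 1 and 2, 1 and 3, and 2 and 3. Across regions, folds of the paired lists went together weakly, with a Spearman's rho of 0.27, 0.24 and 0.27, compared with 0.45 to 0.46 for the same lists in regions of all 3 replicates. Those points share the control library and the selection by calls. Summits were a median of 46.0, 51.0 and 44.0 bp apart, against 38.0, 41.0 and 39.0 bp for the same lists in regions of all 3 replicates.

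The list without a peak usually had none nearby. Its nearest peak was a median of 21.0 kb away for replicates 1 and 2, 44.8 kb for replicates 1 and 3 and 15.6 kb for replicates 2 and 3, and within 200 bp in 26, 24 and 32 regions. The missing list was the shortest of the 3 for replicates 1 and 3, since 31547 peaks of replicate 1, 12827 of replicate 2 and 24762 of replicate 3 were used. Of these peaks 20.6, 29.2 and 23.9% lay in regions of exactly 2 replicates. The number of peaks in a list moved with the size of the pairs. It also moved with the distances above, as the nearest peak lay farther away the fewer peaks the missing list held. The part of list length in the differences between the pairs was not tested, and the lists do not give read depth.

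The edge of the rule was narrow. Just inside it were a region at chr8:20518474-20518933, where peaks of replicates 1 and 2 overlapped by 2 bp, one at chr17:16555738-16556142 with 4 bp in replicates 1 and 3, and one at chr16:24756030-24756657 with 7 bp in replicates 2 and 3. Just outside were peaks of replicates 1 and 2 separated by 1 bp at chr17:10676387-10676851, and peaks that abutted with 0 bp between them at chr6:47358647-47359144 for replicates 1 and 3 and at chr5:41976808-41977224 for replicates 2 and 3. Overlaps of under 10 bp made up 5, 8 and 1 of the regions in the 3 pairs.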

How the data were processed

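ChIP-Seq peak lists of 3 Onecut3-OE FLAG replicates were used, and the grouping followed the sample labels. The submitters' processing notes list MACS2 2.1.0, Bowtie2 2.2.6, the build GRCm38 and deepTools 3.3.2 without saying what each was used for, and how reads were filtered is not stated there. The lists deposited by the authors hold a fold per peak (the ratio of ChIP pileup to background), p-values and q-values as −log10, and a score that is a whole-number form of the p-value. Peak names point to the input library as a shared control and to calling per replicate. Depth is unknown, and median folds were compared only within a list. The limit of a fold of at least 5 was the same in every list, although their scales may differ. Fold and p-value together gave whole-number pileups for 100% of peaks in replicates 1 and 3 within 0.001 in −log10 p, but for at most 0.277% in replicate 2, so its pileups are not given and its fold may rest on another scaling.

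Lists were merged at an overlap of at least 1 bp. Gene ends came from RefSeq (GRCm38.p6), with 21631 protein-coding genes on chromosomes 1 to 19 and X. Promoter windows, which also gave strand, covered 21020 start sites of 17251 genes and none on chromosome 18. Exons were not used here. Shares carry Wilson 95% intervals and medians order-statistic intervals. No test was run, as there was 1 condition. Named were the gene nearest to each of the 8 best-ranked regions of a pair, 4 passenger complex genes, up to 4 reached members of each of 14 lists with the best region (all reached members are named where a list had 8 or fewer, apart from olfactory receptors), the 10 genes with most regions and the 10 densest, and genes reached by all 3 pairs. One gene that this rule names is not reported here. The promoters shown, those with ATCGAT and genes reached by 2 pairs were added after values were seen. The members and lists were chosen with earlier results of these data known. Alternatives changed the q limit, overlap, summit distance, window, chromosomes and replicates. Scripts were tested on simulated data. The tools were pandas 2.3.3, numpy 2.4.6 and scipy 1.17.1 under Python 3.11.15, with matplotlib 3.10.9 for figures.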

Additional observations from a re-analysis of the deposited data

Results flagged for a closer look

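Signal was present on sequences that the comparisons left out. Of 96 regions on the Y chromosome, the mitochondrial genome and unplaced scaffolds, 15 had a peak in exactly 2 replicates. This share is close to that on the chromosomes compared, 8071 of 50748 (15.9%). The count lies above the 3 that a count of 0 allows, which is the rule for listing it here and no test. Of the 15, 7 were on Y, 0 on the mitochondrial genome and 8 on 4 scaffolds, with folds of 1.16 to 5.09. No control list was analysed here, so the level without Onecut3 is not known.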

How the results depend on the processing

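Of 114 values under alternative settings, 63 stayed within the error or within 1.5 times of the reported value and 51 moved. The total of regions and the ATCGAT share were added to the alternatives after seeing the data. With peaks of q at most 0.05, the regions of exactly 2 replicates fell to 4228, with 1303 for replicates 1 and 2, 1404 for replicates 2 and 3 and 1521 for replicates 1 and 3, whose genes reached came to 269. At that limit gene end shares were 16.0% for replicates 1 and 2, 14.5% for replicates 1 and 3 and 17.2% for replicates 2 and 3, and median distances to regions in all 3 replicates were 184, 199 and 190 kb in the same order. With −log10 q of at least 5, 728 regions were left, 322, 176 and 230 by pair, with gene end shares of 21.7, 21.0 and 26.1%, genes reached of 96, 42 and 75, so that replicates 1 and 3 turned from the largest pair into the smallest, distances of 1284, 1161 and 1363 kb and an ATCGAT share of 16.1% (10 of 62 windows). Fewer regions in all 3 replicates remain under stricter limits, so distances lengthen by construction. An overlap of 50% of both peaks gave distances of 122, 133 and 119 kb, and summits within 100 bp gave 132, 142 and 133 kb. Without the third list, each pair takes in the regions of all 3 replicates: counts were 7260 without replicate 3, 9411 without replicate 2 and 6669 without replicate 1, gene end shares 17.0, 15.2 and 17.5%, and genes reached 1498, 1732 and 1426. A window of 1 kb gave shares of 8.07, 5.90 and 7.98% and 211, 311 and 159 genes, and one of 10 kb gave 27.1, 26.1 and 29.6% and 797, 1436 and 665 genes. In each set of gene end shares given here replicates 1 and 3 had the lowest, but their interval no longer stayed below that of replicates 2 and 3 at q of at most 0.05 (12.8 to 16.4 against 15.4 to 19.3) or at −log10 q of at least 5 (15.7 to 27.6 against 20.8 to 32.1). Merging peaks up to 200 bp apart, autosomes alone and distances between midpoints left all values within those bounds. No paired analysis was possible because there was 1 condition. Depth, which the lists do not give, limits what can be said of a missing peak.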
